A study of Mus musculus with 6 samples.

Results

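The Rab genes encode small GTPases of the Ras superfamily, and 59 protein-coding members were found among the 55450 gene rows of the count table, by taking each row whose GENCODE vM21 symbol is Rab followed by a number and at most 1 letter. Genes named for Rab partners, such as Rab11fip1 or Rab3gap1, were left out. The members were chosen by name, but the family itself was selected on the counts of this same comparison, with the values of Rab3d known, so the folds and the separation of the groups are a description and support nothing by themselves.

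Each library was made from 2000 marrow cells sorted as lineage-Sca+ at 12 weeks after transplantation, with the strain given as C57BL6/SJL. The transplanted cells were haematopoietic stem cells (LSK/SLAM) with either endogenous or overexpressed miR-125a, and recipients of the overexpressing cells had been lethally irradiated; the same handling of the endogenous group is not spelled out. Counts of 4 of the 6 labelled libraries were analysed, endogenous replicates 1 and 3 and overexpressed replicates 2 and 3 (n = 2 per group), with total counts from 654126 to 737431, and the other 2 libraries were not analysed here. Separate recipients are not stated, so a p-value here reflects only how much these libraries vary, and that variation may be technical. With bulk RNA, fewer cells of a type cannot be told apart from less RNA per cell. No vector, promoter or number of pooled mice is named in the labels, and age is not given there. Ly6a, which encodes the Sca-1 antigen of the sort gate, had 1, 0, 1 and 1 counts, and the progenitor receptor Kit had 4, 25, 9 and 5, so the marker of the gate was at or near 0. The order of libraries here and throughout is endogenous replicate 1, endogenous replicate 3, overexpressed replicate 2, overexpressed replicate 3.

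Rab proteins cycle between a GDP-bound form, held in the cytosol by the inhibitor GDI, and a GTP-bound form on a membrane, where they recruit the effectors that move, tether and fuse vesicles. Exchange factors (GEFs) load GTP and activating proteins (GAPs) speed its hydrolysis. Each compartment has its own members. In blood cells, Rab27 and Rab3 proteins take part in the release of secretory granules, Rab5 and Rab7 in the maturation of endosomes, and Rab11 in the return of receptors to the cell surface.

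Most Rab genes lay within the range of counts per length of sensory receptor genes, which blood cells are not known to use. Of the 59 members, 50 had fewer than 30 counts in every library and 31 fewer than 10. A count in each of the 4 libraries was present for 48 members, and Rab3a alone was at 0 in all of them. The 1479 rows of odorant, vomeronasal and trace amine receptors held 2.87, 3.77, 2.56 and 3.42 counts per kb of exon. All 59 Rab genes together held 5.88, 3.38, 3.08 and 3.37, above the receptor rows in endogenous 1 and overexpressed 2 and below them in the other libraries. Without Rab3d and Rab7, which were left out for their high values while the receptor rows were not trimmed, the Rab genes held 2.28, 3.41, 2.37 and 2.43. A mean density of 8.30 counts per kb marked the 95th percentile of the receptor rows, and it was exceeded by 5 Rab genes (Rab7, Rab3d, Rab3b, Rab6b and Rab10), or 8.47% of the family, against 9.34% of all protein-coding genes. At the 99th percentile of receptor genes only Rab7 remained.

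**Figure D1:**
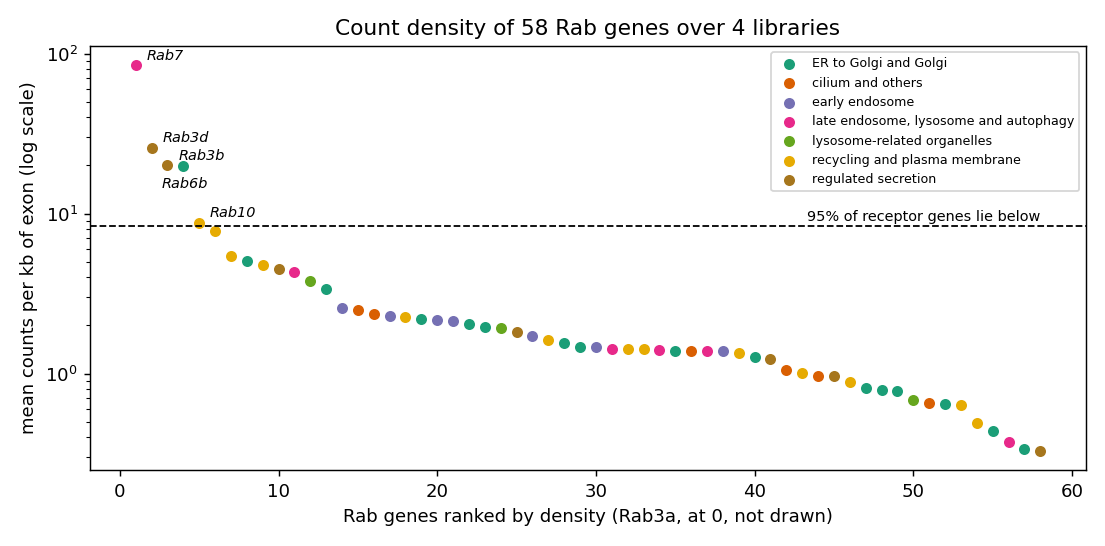
Mean counts per kb of exon over the 4 libraries (log axis) for 58 Rab genes in rank order, coloured by the compartment a gene is known for, with the 95th percentile of the receptor rows as a dashed line. Rab7, Rab3d, Rab3b, Rab6b and Rab10 lie above the line, at 84.5, 25.9, 20.0, 19.8 and 8.75 counts per kb, and Rab11b, at 7.83, is the next below.

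The family as a whole took 0.214% of the counts of endogenous 1, with a 95% exact binomial interval from 0.203 to 0.226. Its share was 0.113% in endogenous 3, 0.0995% in overexpressed 2 and 0.112% in overexpressed 3, and the 3 intervals together ran from 0.0925 to 0.121. Molecular identifiers were not used, so intervals cover counting error and nothing else. The high share in endogenous 1 came from a single gene. Without Rab7 and Rab3d, the remaining 57 members took 0.0806%, 0.111%, 0.0743% and 0.0786%, with both endogenous shares above both overexpressed ones. Scaled by effective library size the groups overlapped, at 939 and 1136 CPM against 1023 and 922.

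Which Rab transcripts differed when miR-125a was overexpressed was asked with edgeR's quasi-likelihood F test over all genes. The count filter left 10808 genes, among them 17 of the 59 Rab genes. At a Benjamini-Hochberg adjusted p under 0.05 the test called 0 of these 17, and 0% of all genes tested. At an unadjusted p under 0.05 it had 2 Rab genes (Rab3d and Rab17) among 566 genes, or 5.24% of those tested. DESeq2 called 1 Rab gene, Rab3d, where it called 1.40% of all genes, 0.527% with higher values. It gave no adjusted p to many of the tested Rab genes, Rab17 and Rab27b among them, so these could not be called. Its shares are of all 10808 genes, including any without an adjusted p. A likelihood ratio test also called Rab3d alone, beside 0.777% of all genes, 0.241% with higher values. Without the count filter, edgeR called 4 of 58 Rab genes with any count (Rab3d and Rab2a higher, Rab7 and Rab10 lower), beside 1.78% of 46089 rows, 0.709% higher and 1.07% lower. In 3 of these 4 genes (Rab7, Rab10 and Rab2a) a single library held most of the counts. The median log2 fold (overexpressed over endogenous) of the 17 members was -0.08, with 8 above and 9 below 0, and that of all genes tested was -0.01. An absolute log2 fold of 2 or more was found for 2 of the 17 (Rab3d and Rab10) and for 5.02% of all genes tested. With the groups also apart it was found for Rab3d, on the higher side, and for 0 members on the lower side, beside 1.07% and 1.87% of all genes tested.

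**Figure D2:**
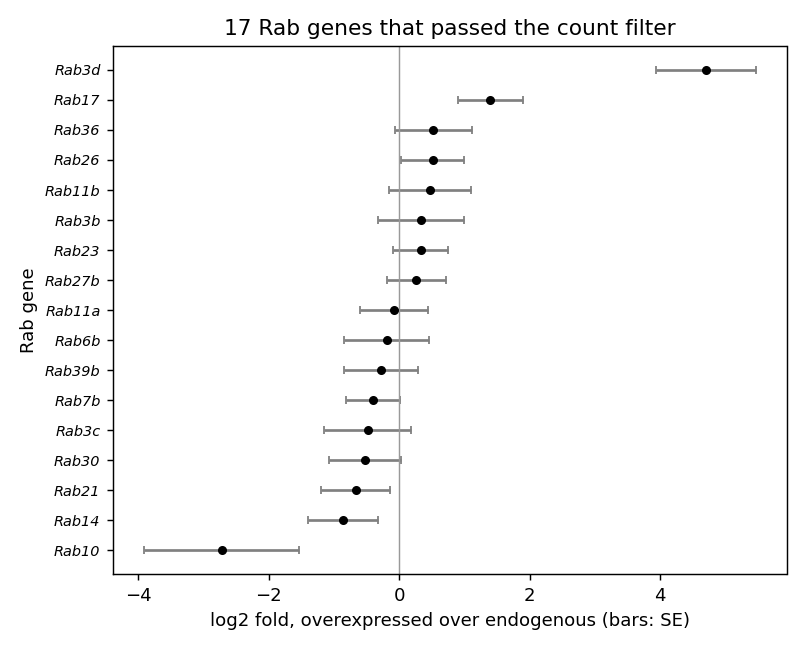
Log2 fold, overexpressed over endogenous, with its standard error for the 17 Rab genes that passed the count filter (n = 2 libraries per group). Rab3d stands at 4.70, Rab17 at 1.40 and Rab10 at -2.72, and the other 14 lie between -0.86 and 0.52.

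Rab3d, the Rab3 isoform of exocrine, mast and other granule-bearing secretory cells, was the member with the widest gap between the groups. It had 9 and 8 counts in endogenous 1 and 3 and 180 and 237 in overexpressed 2 and 3. On the scale of CPM, counts per 1e6 of the effective library size, these were 16.0 and 11.5 against 336 and 388, with means of 13.8 ± 3.19 and 362 ± 37.0 (SD, n = 2). Both overexpressed libraries were high and both endogenous libraries low, with no overlap. The fitted log2 fold was 4.70 ± 0.77 (SE), with an unadjusted p of 9.00e-04 and an adjusted p of 0.814 by edgeR over all 10808 genes. By p it ranked 10 of these genes, and by size of increase 19. The ratio of summed counts, scaled by effective library size, was 26.9 (95% exact interval 16.6 to 46.6, counting error only). Leaving out each library in turn or changing the scaling or test gave log2 folds from 4.44 to 5.06. With all 4 libraries, the adjusted p ranged from 9.77e-08 by DESeq2 to 0.983 by limma-voom. DESeq2 left some tested genes without an adjusted p, so these values were adjusted over unlike sets of genes. With 2 libraries against 2, an exact two-sided permutation test cannot go below p = 0.333.

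Rab3d lies on the minus strand of chromosome 9, at 21907491 to 21918192 of the mm10 build. No other annotated gene overlaps it. Its nearest neighbour, Tmem205, at 2.82 kb, had 7, 1, 2 and 6 counts, and Ccdc159, at 9.28 kb, had 59, 49, 64 and 55. The large gap between the groups was thus absent from both neighbours. Plppr2, at 18.8 kb, had 14, 7, 41 and 8 counts. Groups apart with higher values were seen within 100 kb for Dock6 (14, 18, 31 and 20 counts), Angptl8 (0, 0, 5 and 3) and Rgl3 (1, 2, 6 and 5), at far lower counts than Rab3d. The groups of Tmem205, Ccdc159 and Plppr2 overlapped, as did those of Gm47873, Swsap1, Epor, Ccdc151, Prkcsh and Elavl3. Mir7083 was at 0 counts. Of all rows with a count, 13.8% were apart with higher values. These neighbours were looked at after the values of Rab3d were known.

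The other Rab3 and Rab27 genes did not share the pattern of Rab3d. Rab3b, an isoform of neurons and endocrine and epithelial cells, had 81, 48, 80 and 73 counts, with overlapping groups and a log2 fold of 0.33 ± 0.67 (SE). Rab3c, a further synaptic and secretory isoform, had 36, 16, 10 and 26 counts and a log2 fold of -0.48 ± 0.67, with endogenous 1 the highest library and overexpressed 2 the lowest. Rab3a, the main synaptic vesicle isoform, had 0 counts in each library. A count of 0 allows up to 3 counts, or 5.35, 4.32, 5.60 and 4.91 CPM in the 4 libraries. Per length, Rab3d was the highest of these 4 genes over all libraries, at 44.8 CPM per kb, against 34.2 for Rab3b and 3.08 for Rab3c. The order turns on the group: in the endogenous libraries Rab3d, at 3.82 and 2.75 CPM per kb, lay below Rab3b, at 41.0 and 19.6.

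Rab27a, which drives the release of lytic granules and the transport of melanosomes, had 4, 7, 1 and 3 counts and stayed under the count filter. Rab27b, its partner isoform in platelets and mast cells, had 14, 11, 11 and 17 counts, overlapping groups and a log2 fold of 0.26 ± 0.45 (SE). Rab26 (13, 9, 16 and 13 counts) and Rab37 (1, 1, 2 and 3), both linked to secretory granules, had few counts. Among the 8 members known for regulated secretion, Rab3d was therefore the only one with an absolute log2 fold of 2 or more among the 5 tested.

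**Figure D3:**
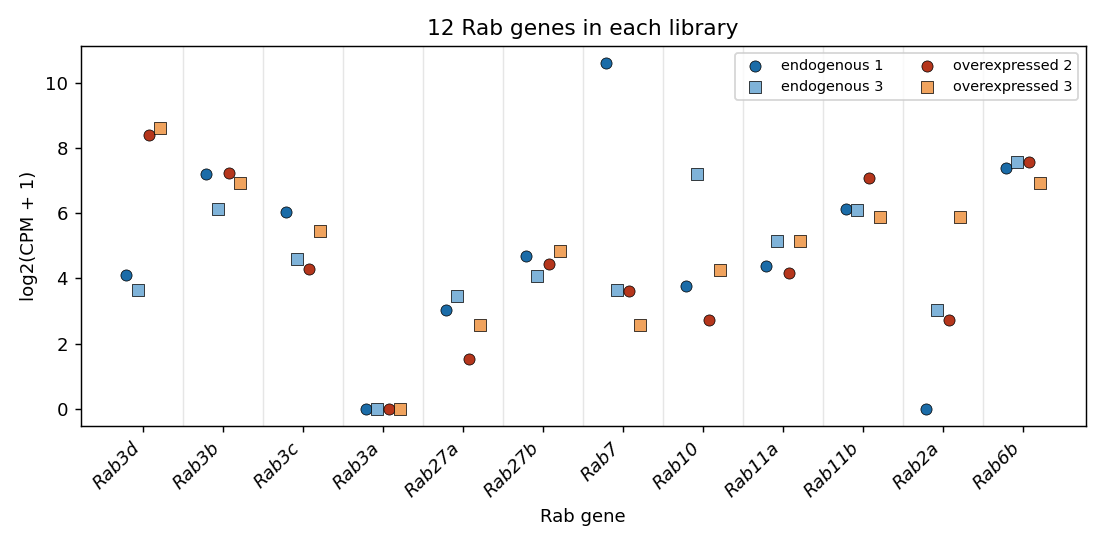
Log2(CPM + 1) of 12 Rab genes in each of the 4 libraries, with circles and squares for the replicates of a group. The overexpressed libraries of Rab3d sit far above its endogenous ones (336 and 388 against 16.0 and 11.5 CPM). Rab7 and Rab10 each have 1 library apart from the other 3. Rab2a is highest in overexpressed 3, at 57.3 CPM, and at 0 in endogenous 1, with the other libraries between.

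Levels of cell type markers were compared over the same libraries. Rab3d is known from mast cells, and of the 10 listed mast cell and basophil genes 0 passed the count filter. Their summed level was 53.5 and 66.2 CPM in the endogenous libraries and 56.0 and 1766 in the overexpressed ones, where the high value came from the basophil protease Prss34 (5, 8, 7 and 1048 counts). Cpa3, the mast cell carboxypeptidase, had 5, 16, 4 and 3 counts, and Mcpt4, Cma1 and Fcer1a had at most 2 in a library, while the basophil protease gene Mcpt8 had 3, 2, 8 and 13. Of this list, 2 genes were apart with higher values (Prss34 and Mcpt8) and 2 with lower (Cpa3, and Hdc with 9, 8, 5 and 4 counts). Of all rows with a count, 13.8% were apart with higher and 14.3% with lower values. In overexpressed 2, where Rab3d was high, the summed level lay between those of the endogenous libraries. The 10 neutrophil genes, 9 of them tested, summed to 8666 and 10429 CPM against 21672 and 12961. The secondary granule gene Ltf, with 4538, 3735, 8490 and 7413 counts, was the 1 tested gene of this list whose groups were apart. Of all genes tested, 15.2% were apart with higher and 18.0% with lower values. Without Ltf the sums were 579 and 5050 CPM against 5831 and 817, which overlap. Ngp (45, 364, 1042 and 28 counts), S100a8 (36, 1130, 739 and 205) and Mmp8 (1, 1048, 16 and 7) had overlapping groups. The 8 megakaryocyte and platelet genes, 3 of them tested, summed to 157 and 154 CPM against 226 and 174, with Pf4 at 0, 2, 2 and 0 counts. By CPM the megakaryocyte sum and Ltf were thus higher in both overexpressed libraries, as was Rab3d. In raw counts the groups of the megakaryocyte list overlapped, at 88, 107, 121 and 106. In the dendritic list, with 8 genes tested, 3 were apart with higher and 1 with lower values, beside the same 15.2% and 18.0% of all genes tested. The class II gene H2-Aa had 7 and 9 counts against 96 and 801 (log2 fold 5.85), a larger fold than that of Rab3d, while its partner H2-Ab1 had 179 and 53 against 3 and 3 (-5.18). The dendritic sum overlapped between the groups, at 542 and 1485 CPM against 1015 and 1486. In the B lineage list, Ms4a1 had 98 and 21 counts against 6 and 10 (-2.86), and the sum overlapped, at 1028 and 321 CPM against 465 and 565. The sums of the stem and progenitor, plasma cell, T and NK, erythroid and stromal lists also overlapped. Cd34, with 32, 26, 58 and 38 counts, was the 1 tested stem and progenitor gene whose groups were apart. The plasma cell and stromal lists each had 1 tested gene apart with higher and 1 with lower values. The part of these cell types in the Rab3d values was not tested.

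Rab7, Rab10 and Rab2a were each high in a single library. Rab7, which directs late endosomes to fusion with lysosomes, had 865 counts in endogenous 1 and 8, 6 and 3 in the others, so 98.2% of its summed CPM came from that library. It had too few libraries with enough counts for the count filter. Without the filter, edgeR gave a log2 fold of -6.60 ± 1.25 (SE) and an adjusted p of 4.62e-05, although endogenous 3, at 11.5 CPM, was almost level with overexpressed 2, at 11.2. Rab10, which carries membrane proteins to the cell surface, had 7 and 102 counts against 3 and 11. Endogenous 3 held 80.3% of its CPM and the groups overlapped, since endogenous 1 was below overexpressed 3. Its log2 fold was -2.72 ± 1.19, with an adjusted p of 0.845 by edgeR, and it was -0.08 without endogenous 3. Rab2a, a GTPase of the traffic between the endoplasmic reticulum and the Golgi, had 0 and 5 counts against 3 and 35, and overexpressed 3 held 81.8% of its CPM. Among the 20 members with a mean of 10 or more counts, these 3 were the ones with over 75% of the CPM in 1 library. Among genes that passed the count filter such a distribution was found for 2.95%, and for 1 of the 17 Rab genes (Rab10). For all genes with a mean of 10 or more counts the share was not taken, so the 3 of 20 have no like background. In Rab3d, by contrast, the 2 overexpressed libraries held similar levels, and the higher one took 51.7% of the CPM.

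**Figure D4:**
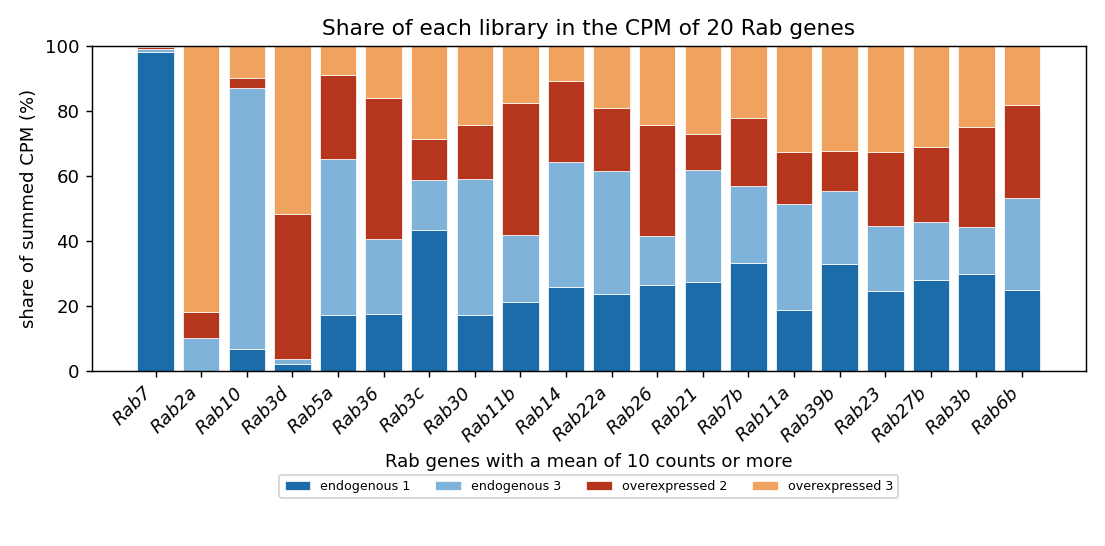
Share of each library (%) in the summed CPM of the 20 Rab genes with a mean of 10 counts or more, ordered by the share of the leading library. Rab7, Rab2a and Rab10 draw 98.2%, 81.8% and 80.3% of their CPM from 1 library, and the bar of Rab3d is filled almost wholly by both overexpressed libraries.

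Of the 16 members known for the endoplasmic reticulum and the Golgi, 4 were tested and Rab6b was the most abundant. Rab6b, the neuronal isoform of the Golgi GTPase Rab6, had 93, 130, 101 and 74 counts and a log2 fold of -0.19 ± 0.65 (SE). Per length it lay at 32.9 CPM per kb, whereas Rab6a, the isoform of most tissues, lay at 2.42 with 5, 13, 1 and 4 counts. Rab1a and Rab1b, which act between the endoplasmic reticulum and the Golgi in all cells, had 8, 16, 5 and 2, and 1, 2, 1 and 0 counts. Rab6a, Rab1a and Rab1b thus each had fewer counts than Rab6b.

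The 7 members of early endosomes had between 1 and 24 counts in any library, and 1 of them was tested. Rab5a, Rab5b and Rab5c, which govern the fusion of early endosomes, had 7, 24, 10 and 4, then 2, 7, 16 and 4, then 6, 7, 6 and 1 counts, all with overlapping groups. Rab21, linked to the uptake of integrins, had 13, 20, 5 and 14 counts and a log2 fold of -0.67 ± 0.53 (SE). Its overexpressed libraries lay below its endogenous ones only after scaling, since overexpressed 3 had 14 counts and endogenous 1 had 13.

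Of the 13 members of recycling endosomes and the plasma membrane, 5 were tested. Rab11a and Rab11b, the recycling GTPases, had 11, 24, 9 and 21, and 39, 47, 71 and 35 counts, with log2 folds of -0.08 ± 0.53 and 0.47 ± 0.63 (SE). Both overlapped between the groups, and the direction of each turned when 1 library was left out. Rab17, a GTPase of polarised epithelia, had 6 and 5 counts against 13 and 14, with a log2 fold of 1.40 ± 0.49 and an adjusted p of 0.845 by edgeR. Rab14, which links the Golgi with endosomes, had 13 and 24 against 12 and 6 counts (-0.86 ± 0.53). The groups of both genes were apart by a few counts, and both genes were singled out with their values known.

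Of the 6 members of late endosomes, lysosomes and autophagy, Rab7b was tested, with 25, 22, 15 and 18 counts and a log2 fold of -0.40 ± 0.41 (SE). Rab9, Rab9b, Rab12 and Rab24 had at most 7 counts in any library. Rab29, Rab32 and Rab38, GTPases of lysosome-related organelles such as melanosomes and platelet dense granules, had at most 15 counts, reached by Rab38 in endogenous 3, and 0 of them were tested. Among the 6 remaining genes, Rab23, which acts in ciliary Hedgehog signalling, had the most counts, 18, 18, 16 and 26. Across all roles, the groups of 10 members were apart with higher and of 10 with lower values in the overexpressed libraries, out of 58 with a count. That is 17.2% each way, beside 13.8% and 14.3% of all rows with a count. The split depended on the scaling: by total counts alone 5 members were apart with higher and 19 with lower values, beside 7.60% and 23.6% of rows. Under both scalings the same 5 members were apart with higher values (Rab3d, Rab13, Rab17, Rab37 and Rab43), and all 10 with lower values by effective library size were also lower by total counts (Rab1a, Rab2b, Rab6a, Rab7, Rab7b, Rab14, Rab21, Rab22a, Rab27a and Rab28). Among the 17 tested genes, 2 (Rab3d and Rab17) were apart with higher values and 3 (Rab14, Rab21 and Rab7b) with lower ones, where 15.2% and 18.0% of all tested genes were.

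Rab regulators and effectors were described from lists of known genes. Of 33 Rab GEFs, 23 were tested, 15 with folds above and 8 with folds below 0, a median log2 fold of 0.17, and 0 called by edgeR. The groups of 8 of the 23 were apart with higher and of 3 with lower values. Of all tested genes, 15.2% and 18.0% were. Gapvd1, an exchange factor for Rab5, had 5233, 4392, 6619 and 8851 counts, or 773 CPM per kb on average. Rab7, the highest Rab gene, averaged 150 CPM per kb and reached 591 in endogenous 1. The groups of Gapvd1 were apart and its log2 fold was 0.78 ± 0.66 (SE). The other GEFs summed to 971 and 2118 CPM against 1351 and 1101, with overlapping groups. Rin1, another Rab5 exchange factor, had 18 and 20 against 51 and 30 counts (1.24 ± 0.53), Dennd5a had 32 and 52 against 111 and 55 (1.17 ± 0.68), and Ccz1, a subunit of the Rab7 exchange factor, had 12 and 19 against 7 and 5 (-1.20 ± 0.48). Dennd4a had 12 and 18 against 10 and 13 counts (-0.24 ± 0.40). Rabif, which binds nucleotide-free Rab proteins and was likewise singled out, had 706 counts in endogenous 3 and 2, 6 and 6 in the other libraries.

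Of 34 Rab GAPs, 24 were tested, 11 with folds above and 13 below 0, a median of -0.04, and 0 called. The groups of 4 of the 24 were apart with higher and of 4 with lower values, beside 15.2% and 18.0% of all tested genes. Tbc1d30 had 12 and 16 against 56 and 21 counts (log2 fold 1.63 ± 0.65, SE) and Tbc1d22a had 3 and 8 against 13 and 17 (1.57 ± 0.52). Tbc1d9 (22 and 25 against 11 and 17, -0.63 ± 0.40) and Tbc1d14 (18 and 27 against 11 and 18, -0.50 ± 0.41) had lower values. The activating proteins of Rab3 itself, Rab3gap1 and Rab3gap2, had 19, 13, 12 and 11, and 10, 12, 5 and 10 counts. Neither had higher values along with Rab3d.

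Of the 7 genes for Rab prenylation and membrane recycling, 3 were tested and 0 called, with a median of -0.04. Gdi2, the GDI that extracts GDP-bound Rab proteins from membranes in most tissues, had 86 and 59 counts against 19 and 7, a log2 fold of -2.34 ± 0.74 (SE) with an adjusted p of 0.845 by edgeR. Both overexpressed libraries were below both endogenous ones.

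Of 50 Rab effectors, 35 were tested, 16 with folds above and 19 below 0, a median of -0.09, and 0 called. In 10 of the 35 the overexpressed libraries both lay below the endogenous ones and in 3 both lay above, where 18.0% and 15.2% of all tested genes did so. Exoc6, a subunit of the exocyst that binds Rab11, had 24 and 168 against 11 and 6 counts (-3.22 ± 1.00, SE), with 76.8% of its CPM in endogenous 3. Golga5, a golgin that binds Rab1, had 21 and 42 against 8 and 12 (-1.49 ± 0.47). Rph3al (Noc2), an effector of Rab3 and Rab27 in secretory cells, had 18 and 17 against 23 and 75 (1.55 ± 0.66), and Bicd2, the dynein adaptor of Rab6, had 10 and 18 against 24 and 25 (0.95 ± 0.42). Rph3a, the founding Rab3 effector, had 46, 52, 45 and 46 counts, level across the libraries. The synaptotagmins Syt2 (20 and 14 against 29 and 30 counts, 0.89 ± 0.47) and Syt7 (25 and 18 against 38 and 34, 0.85 ± 0.50), calcium sensors of exocytosis, were the members of the fusion list whose groups were apart among its 9 tested genes, of which 3 had folds above and 6 below 0 (median -0.32) and 0 were called. The largest fold above 0 among the tested genes of these 5 lists was that of Tbc1d30, 1.63, against 4.70 for Rab3d.

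**Figure D5:**
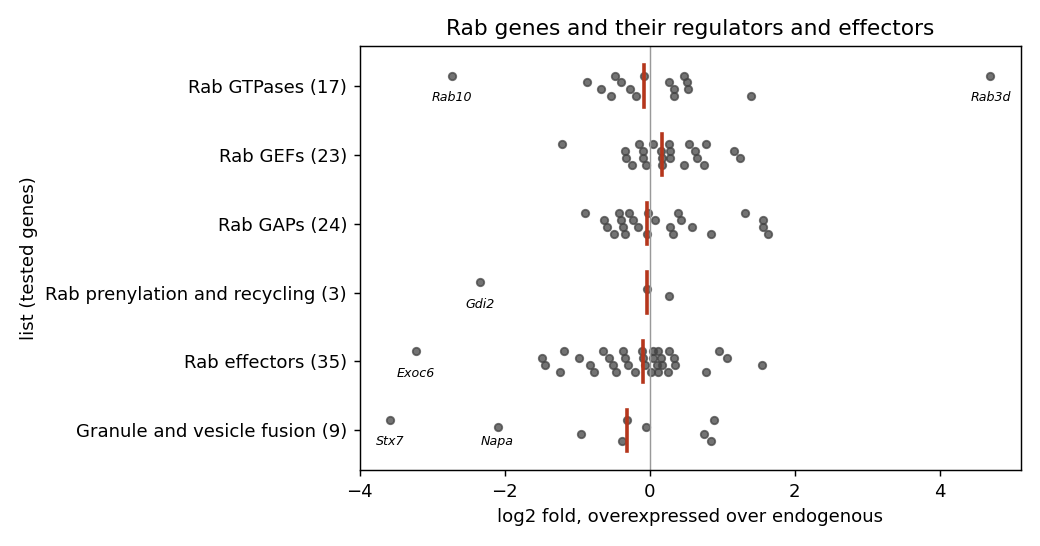
Log2 fold, overexpressed over endogenous, of each tested gene in the Rab family and in 5 lists of regulators, effectors and fusion proteins, with the number of tested genes in brackets and the list median as a red bar. Genes past an absolute log2 fold of 2 are named, and Rab3d is the 1 among them with a fold above 0.

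Seed sites for miR-125a were searched because they can be read from sequence and did not enter the choice of the family. The mature strand from RefSeq (GRCm38.p6) is printed with its seed, bases 2 to 8, in capitals, and below it 1 site for each of 4 tested Rab genes, from the longest annotated 3' UTR, in capitals within a few flanking bases. They were chosen to show the gene with the largest fold (Rab3d), the other gene of the tested set with separated, higher values (Rab17) and the 2 tested genes with the most counts among those with an 8mer (Rab6b and Rab7b).
miR-125a-5p: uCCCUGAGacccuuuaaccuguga
Rab3d: tgtctctcagCTCAGGGcaccct
Rab17: tgagaactgtCTCAGGGAagatcc
Rab6b: tgctgggtggCTCAGGGAcactga
Rab7b: aggccctgccCTCAGGGActtggg
The Rab3d site is a match to the whole seed (CTCAGGG) at base 88 of a 3' UTR of 2993 bases, on chromosome 9 at 21910390 to 21910396, minus strand. The other 3 are 8mers, the same 7 bases followed by an A, on chromosome 1 at 90958660 to 90958667, minus strand (Rab17), on chromosome 9 at 103182163 to 103182170, plus strand (Rab6b), and on chromosome 1 at 131714797 to 131714804, plus strand (Rab7b).

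A 7mer or 8mer site (CTCAGGG, or TCAGGGA, read on the transcript strand, the 8mer CTCAGGGA counted once) was present in 14 of 59 Rab genes, or 23.7%, and in 19.5% of all protein-coding genes with a 3' UTR. An 8mer was present in 5 (Rab1a, Rab6b, Rab7b, Rab17 and Rab38), or 8.47%, against 4.60% of all such genes. Of the 17 tested Rab genes 7 had a site, 3 with folds above 0 (Rab3d, Rab17 and Rab36) and 4 below (Rab3c, Rab6b, Rab7b and Rab39b), a median log2 fold of -0.19. The 10 without a site had 5 above and 5 below 0, with a median of 0.09. The 2 tested members with separated, higher values both had a site, and Rab6b, with 3 sites, had overlapping groups. Of the 3 tested members with separated, lower values, Rab7b had 2 sites and Rab14 and Rab21 had 0. Rab1a, with an 8mer and few counts, had 8 and 16 against 5 and 2. The share of genes with a site was not counted among all tested genes, so the counts among tested members have no like background. A match to the seed is a description of the sequence and does not show that the site is used.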

How the data were processed

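For each gene the authors deposited raw counts in whole numbers, with no normalization. Per the submitters' processing notes FastQC 0.11.8, STAR, edgeR 3.24.3 and the mm10 build were used, while the counting tool, gene models and strand setting are not named by any source consulted. Per the file headers, edgeR results were deposited too, as log2 fold, log2 CPM, p-values and FDR, and a signed score that is the -log10 of the p-value, per the file headers and values.

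All rows matched GENCODE vM21. The test was run in R 4.3.3 with edgeR 4.0.16, using filterByExpr (minimum count 10), TMM factors, quasi-likelihood F test with the dispersions of earlier edgeR versions, Benjamini-Hochberg adjustment over all genes tested, threshold 0.05. Each SE was obtained by dividing the size of the log2 fold by the root of its F value. CPM uses the effective size of the filtered library. The design was fixed for 6 libraries and fitted on the 4 with counts. Alternatives included DESeq2 1.42.0 and limma 3.58.1. The fit was also run on simulated counts, with changes set only in genes that had more counts than most Rab genes. It does not show how well changes in Rab genes of low counts would be found. Reads of paralogs, pseudogenes and antisense genes cannot be assigned with certainty.

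Members and lists were chosen with earlier results of these data known. Named by rule were members apart between groups with an absolute log2 fold of 2 or more and the 8 highest by CPM per kb. The rule also covered members called by any alternative and the Rab3 and Rab27 genes. From the lists of regulators, effectors and fusion proteins it took up to 2 genes per list and direction. These had the largest fold among tested genes whose groups were apart. In the cell type lists, not every gene with groups apart was named. Others were named after their values were seen.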

Additional observations from a re-analysis of the deposited data

How the results depend on the processing

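Among all genes, edgeR called 822 without the count filter, DESeq2 151 and a likelihood ratio test 84, against 0 in the main test, with 4, 1 and 1 Rab genes. By RLE size factors, total counts only, limma-voom with quality weights, the quasi-likelihood method of edgeR 4 and without each library in turn, 0 genes were called (lowest 0, highest 0). Without 1 library the log2 fold turned sign for 9 of the 17 tested Rab genes. For the 6 of these that the naming rule covers, the lowest and highest values over the 4 omissions were Rab11a -0.66 and 0.38 (0.37 without endogenous 3, 0.38 without overexpressed 2), Rab11b -0.22 (without overexpressed 2) and 0.97, Rab27b -0.056 (without endogenous 3) and 0.72, Rab3b -0.12 (without endogenous 3) and 1.07, Rab3c -1.19 and 0.53 (without endogenous 1, and 0.0016 without overexpressed 2), and Rab6b -0.50 and 0.12 (without overexpressed 3). The other 3 were Rab30 (0.24 without endogenous 3), Rab36 (-0.29 without overexpressed 2) and Rab39b (0.11 without endogenous 1, 0.26 without overexpressed 2). The cause was not tested. Rab3d kept its direction under 11 of 11 alternatives. Of the 59 members, 5 exceeded the background density, but 1 did at the 99th percentile. A seed site was found in 14 members, and in 5 with 8mers only, a stricter match. By total counts only, the median log2 fold of all genes was -0.29. No paired analysis was possible because the analysed libraries of the groups share only replicate number 3. Rab7 and Rab2a did not pass the main filter and have no main fold. Depth limits the members with low counts: 31 had under 10 in every library.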

Other observations

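The authors' deposited table lists 30 of the 59 Rab genes, 3 of them at an FDR under 0.05, where 2.37% of its 17039 genes are. These were Rab3d (log2 fold -4.71, FDR 0.0111), Rab7 (6.59, FDR 0.00121) and Rab10 (2.67, FDR 0.0399) in the authors' deposited table. Its folds run the other way from those above: of 10808 genes tested here, 98.9% have the opposite sign there. It comes from the same libraries and adds no independent measurement. Of these 3 genes, the counts of Rab7 and Rab10 came mostly from 1 library and those of Rab3d from both overexpressed libraries.

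Further rows named for Rab genes were not members. The processed pseudogene Rab7-ps1 had 4 counts in endogenous 1, the library with 865 counts of Rab7, and 0 in the other 3. Rab5a-ps, Rab11b-ps2 and Rab9b-ps1 had at most 2 counts in a library. The antisense gene Rab10os, which overlaps Rab10 on the opposite strand, had 22, 49, 17 and 11 counts, so it was highest in endogenous 3, as Rab10 was (7, 102, 3 and 11). Without the strand of the counts, reads of these 2 genes cannot be told apart where they overlap. Rabl6, a Rab-like GTPase, had 4 and 10 against 14 and 11 counts, a log2 fold of 0.98 ± 0.55 (SE), and Rabl2, which acts at the cilium, had 14, 10, 6 and 38 counts.

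Other genes of the endosomal system were high in 1 library. Stx7, a syntaxin of late endosomes, had 456, 19, 17 and 23 counts, with 89.4% of its CPM in endogenous 1, the library in which Rab7 was high. Usp6nl, an activating protein for Rab5, had 252 counts in endogenous 3 and 9, 7 and 9 in the other libraries, and Tbc1d2, an activating protein for Rab7, had 84 counts in overexpressed 3 and 3, 2 and 8 in the others. These genes were picked after their values were seen.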
